A study of Mus musculus with 24 samples.

Results

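Voltage-gated sodium and calcium channels, their auxiliary subunits and the potassium channels were followed across carotid arteries of ovariectomized mice. Members were all protein-coding genes of GENCODE mouse release 21 whose symbol starts with Kcn or Cacn, or with Scn followed by a digit. This gave 134 of the 55421 genes in the count tables and of the 21976 protein-coding ones: 94 potassium, 26 calcium and 14 sodium channel genes. By their main known place of expression, 19 members were listed as smooth muscle channels, 55 as neuronal, 8 as striated muscle, 7 as epithelial, 3 as endothelial, 3 as immune and 2 as glial, and 37 stayed unlisted. These lists describe textbook knowledge, and some members are used by several cell types.

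Uninjured carotid arteries of ovariectomized female C57BL/6 mice, aged 9 weeks by the labels, were sequenced in 4 groups of 6 libraries named by title: OVX (vehicle), E2 (17β-estradiol), E4 (estetrol) and TAM (tamoxifen). Every group, the controls included, was ovariectomized, and each library carried its own animal number. Estradiol is the main ovarian estrogen, estetrol is an estrogen of the fetal liver, and tamoxifen is a selective estrogen receptor modulator. Per the study's methods, E2, E4 or vehicle came from subcutaneous pellets that held less E2 than E4 by weight, with contents chosen to give comparable estrogenic activity. Labels and methods differ in the length of treatment, and the E4 libraries are E4 by title but placebo by their treatment field. Whether a library held 1 mouse or pooled tissue is not given in the sources used here, and p-values measure the spread between libraries.

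In the arterial wall, smooth muscle tone follows the membrane potential. L-type calcium channels, built on Cacna1c, let calcium in when the cell depolarizes, and potassium channels such as the calcium-activated Kcnma1 with its Kcnmb1 subunit, the voltage-gated Kcna5 and the ATP-sensitive Kcnj8 pull the potential back. Sympathetic nerves run along the artery and sympathetic ganglia lie beside it. Their neurons fire through sodium channels such as Scn9a and Scn3a and release transmitter through N-type calcium channels built on Cacna1b. In bulk tissue, fewer cells of a type and less RNA per cell cannot be told apart.

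The total count per library was 24647246 to 64221401. In 2 libraries sympathetic neuron transcripts were scarce. The summed level of 12 markers was 46.9 CPM (counts scaled to library size) in OVX C5 against 3843 to 7938 in the other OVX libraries, and 284 CPM in TAM C35 against 6807 to 9909 in the other TAM libraries. It was 2930 to 7502 CPM in E2 and 5992 to 10351 CPM in E4. None of the 12 was at 0 in any library. Dbh, the noradrenaline-making enzyme, stood at 0.483 CPM in OVX C5 and 19.6 CPM in TAM C35, and at 242 to 1270 CPM in the E2 and E4 libraries. The smooth muscle markers (10 genes, summed) were present in every library, at 2615 to 5345 CPM in OVX, 3035 to 4125 CPM in E2, 3240 to 5309 CPM in E4 and 3338 to 9232 CPM in TAM, the highest in TAM C35. Library E4 C38 stood apart in thyroid and parathyroid markers (8 genes, summed), at 3025 CPM against 28.5 to 134 CPM in the other E4 libraries. Without it, 8 members in place of 10 were called for E4 against OVX and 4 in place of 5 for E4 against E2, where 18.1% and 7.49% of all genes were called. The calls lost were those of Kcnd1 and Kcnrg against OVX and of Kcnk1 against E2. Library E2 C9 stood apart in T cell markers (6 genes, summed), at 304 CPM against 3.97 to 23.5 CPM in the other E2 libraries. Without E2 C9 the calls of Kcnj11 and Cacna1g for E2 against OVX ended, and those of Cacna1d and Kcne1l held. The calls of Kcnk1 and Kcnk4 for E4 against E2 ended as well, and those of Kcnj8 and Kcnk6 held. Several results that rest on OVX C5 or TAM C35 are given with and without them. The fits with a sympathetic neuron marker covariate, given below, were not repeated without these libraries.

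Of the 134 members, 114 passed the low-count filter of the OVX, E2 and E4 fit and 116 that of the fit with TAM. The 20 that did not pass the first had a mean level of at most 0.329 CPM; among them were Kcnj6, a neuronal inward rectifier, and Cacng1, a skeletal muscle calcium channel subunit. Exons of 39 members overlap those of another gene. Among the genes described below these are Kcnma1, Kcnk3, Kcnk1, Kcnk4, Kcnq5, Kcna6, Kcnip4, Kcnab2, Kcnd3, Kcnt2, Kcnj3, Kcnj6, Kcnmb4, Kcnn2, Scn9a, Cacna1a, Cacna1d, Cacna1h and Kcne3, and their counts are uncertain to that extent because the strand setting of the counting is not given in the sources used here.

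Per length of all annotated exons merged, the scale used here to compare genes, the highest member was Scn7a, a glial sodium channel relative that responds to extracellular sodium. Its level was 68.1 ± 15.96 TPM (counts scaled to gene length and library size; SD, n = 24). The next were Scn3b, a sodium channel β subunit, at 54.6 ± 23.2 TPM, Kcnk3, an acid-sensitive two-pore potassium channel of vascular smooth muscle, at 51.3 ± 15.03 TPM, and Kcnip4, a subunit of A-type potassium channels, at 46.9 ± 18.3 TPM. Kcna6, Kcnc4, Kcna2, Scn2b, Kcnj8 and Cacnb3 completed the 10 highest, the last at 32.7 ± 12.7 TPM. Each neighbouring pair in this order differed by less than the larger SD of the pair, so neighbours in this order are not resolved; Scn7a exceeded Scn3b in 18 of 24 libraries. The same 10 genes were the highest in the 22 libraries other than OVX C5 and TAM C35, with Scn7a at 67.5 ± 16.5 TPM and Scn3b at 58.9 ± 18.7 TPM. Group means varied around these values: that of Kcnj8 was 42.6 TPM in E2 and 28.9 TPM in E4, and that of Kcnc4 was 27.1 TPM in OVX and 61.5 TPM in E4, a difference that was not called (adjusted p = 0.0644, edgeR). Kcnc4 stood at 5.41 CPM in OVX C5 against 33.6 to 72.8 CPM in the other OVX libraries. It was called without OVX C5 (log2 fold change 0.87, adjusted p = 0.0367, edgeR) and with the sympathetic neuron markers as a covariate (0.54, adjusted p = 0.0463, edgeR). Thus 4 of the 10 (Kcnk3, Kcna2, Kcnj8 and Cacnb3) were on the smooth muscle list, and 4 (Scn3b, Kcnip4, Kcna6 and Scn2b) were on the neuronal list. In all, 30 members reached a mean of 10 TPM, 86 reached 1 TPM and 17 stayed under 0.1 TPM. On this scale the pore subunits of smooth muscle calcium entry were far from the top: Cacna1c reached 4.36 TPM, the T-type Cacna1g 1.85 TPM and Cacna1h 1.33 TPM. The merged exons of Cacna1c span 21191 bases and those of Kcnj8 2548 bases. Exons that are not in the transcripts of the artery count in this length and lower the TPM, so the place of Cacna1c is uncertain to that extent.

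**Figure D1:**
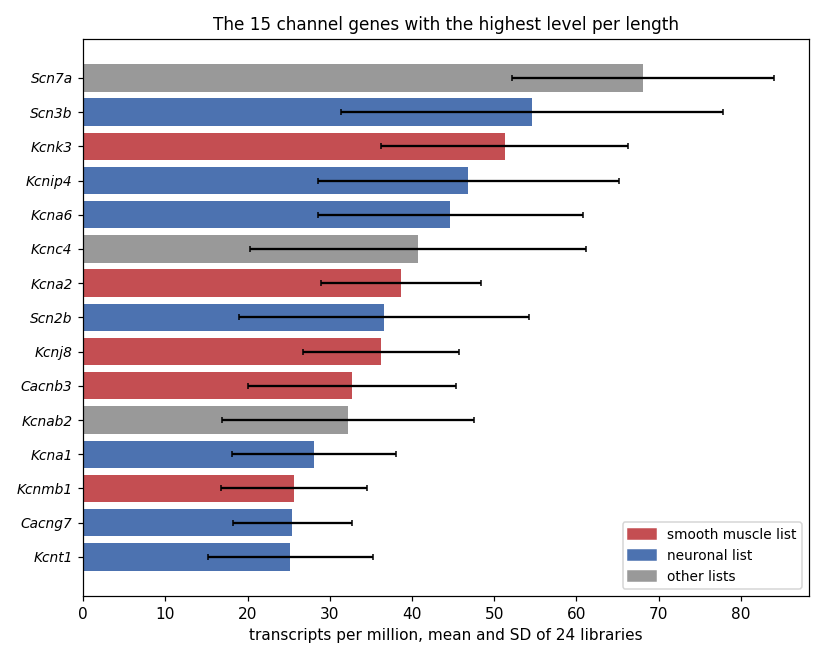
Mean level per length (TPM, bars, with the SD of all 24 libraries) of the 15 highest channel genes, coloured by list. Scn7a stands at 68.1 TPM, and genes of the smooth muscle, neuronal and other lists are mixed below it.

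In libraries OVX C5 and TAM C35 several neuronal channel genes were far below the other libraries of the group. Cacna1b, the N-type pore, was at 0.703 CPM in OVX C5 against 71.5 to 89.9 CPM in the other OVX libraries, and at 5.76 CPM in TAM C35 against 79.1 to 124 CPM in the other TAM libraries. Scn9a, a sodium channel of sympathetic and sensory neurons, was at 0.923 CPM against 63.9 to 106 CPM and at 3.64 CPM against 67.3 to 112 CPM. Both genes were thus far below every other library of the group in both. Scn3a was as low, at 0.967 CPM in OVX C5 and 1.53 CPM in TAM C35, where no other library of those groups was below 30.7 CPM. Scn3b kept 9.33% and 13.4% of the median of the other libraries of the group.

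Among the smooth muscle channels levels went both ways. Kcnj8, the pore of the vascular ATP-sensitive channel, was at 75.0 CPM in OVX C5 against 40.0 to 60.7 CPM in the other OVX libraries, and at 61.4 CPM in TAM C35 against 25.3 to 41.3 CPM in the other TAM libraries. In both it lay above every other library of its group. The summed endothelial markers were also the highest of the group in both, at 851 CPM against 530 to 700 CPM and at 1180 CPM against 575 to 903 CPM. The smooth muscle marker sum was the highest of the group in TAM C35 (9232 CPM against 3338 to 4753 CPM). In OVX C5 it lay within the range of the other OVX libraries (4478 CPM against 2615 to 5345 CPM). In OVX C5 the adipocyte sum (2900 CPM against 1317 to 2102 CPM) and the macrophage sum (395 CPM against 218 to 264 CPM) were the highest of the group as well, and the part of these cells was not tested. Kcnmb1, the β1 subunit of the large-conductance calcium-activated potassium channel, was at 53.5 CPM, within the range of the other OVX libraries, and at 119 CPM in TAM C35 against 41.5 to 70.7 CPM. Kcnma1, the pore of that channel, went the other way, at 14.8 CPM against 56.7 to 72.6 CPM and at 27.9 CPM against 45.6 to 77.9 CPM. The pore and its smooth muscle subunit therefore did not move together across these libraries, and Kcnma1 is also known from neurons.

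Counted over the members that passed the filter, 34 of 116 were under 0.25 of the lowest other library of the group in both OVX C5 and TAM C35, where 4.63% of all tested genes were. They comprised 27 of the 52 neuronal channel genes and 1 of the 19 smooth muscle ones, Kcnq5, a voltage-gated channel also known from neurons. The other 6 were Kcnn3 (endothelial list), Kcnj16 (epithelial list) and the unlisted Kcnab2, Kcnc4, Kcnk10 and Kcnk18. The median neuronal channel gene kept 9.45% of its level in OVX C5 and 16.1% in TAM C35, and the median smooth muscle one 101% and 118%. Over all genes tested these medians were 100% and 99.4%. Beside the 118%, the smooth muscle marker sum was 9232 CPM in TAM C35 against a median of 4197 CPM in the other TAM libraries. Members below every other library of the group in both numbered 63, where 24.5% of all genes were, with 40 of the 52 neuronal and 7 of the 19 smooth muscle channel genes among them. Members above in both numbered 6, among them Kcnj8, Kcne4, Kcnk6, Kcns3 and Kcnj11, where 14.2% of all genes were. No test was run on these counts.

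Not every gene of the neuronal list was this low. Kcna1, a Shaker-type channel known from axons, was at 67.4 CPM in OVX C5 against 40.1 to 82.8 CPM, and at 88.5 CPM in TAM C35 against 54.8 to 103 CPM. Kcnh2, the ERG potassium channel, was at 32.3 CPM against 35.7 to 58.3 CPM and at 48.3 CPM against 39.4 to 51.6 CPM. Kcnd3 and Kcnt2 kept 91.5% and 84.7% of the median in OVX C5 and exceeded it in TAM C35. These 4 genes kept 74.7% or more of the median of their group in both libraries. On the other side, Cacnb3, a calcium channel β subunit placed on the smooth muscle list, kept 22.9% and 30.4%. Of the glial pair, Scn7a had 69.6 TPM in OVX C5 and 79.0 TPM in TAM C35, close to its mean, whereas Kcnj10, the inward rectifier of satellite glia, kept 18.4% and 39.3% of the median.

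**Figure D2:**
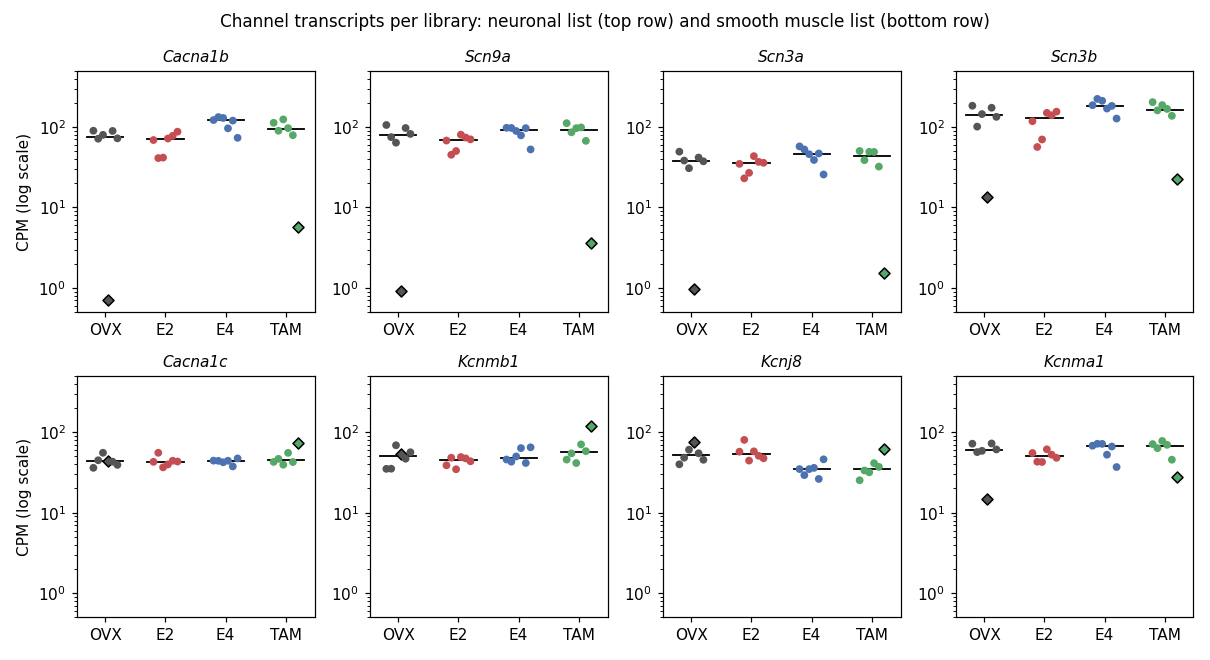
CPM per library (log axis, the same range in every panel) of 4 neuronal and 4 smooth muscle channel genes by group, with a line at the group median. Diamonds mark OVX C5 and TAM C35, which fall to 0.703 and 5.76 CPM for Cacna1b and lie above their groups for Kcnj8 (75.0 and 61.4 CPM).

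**Figure D3:**
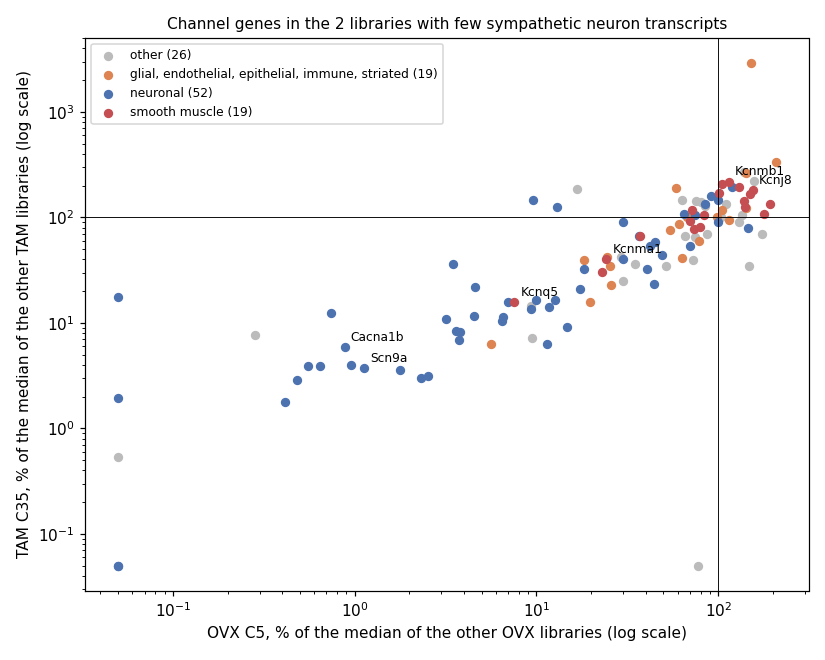
Level of each of the 116 members tested in OVX C5 (x axis) and TAM C35 (y axis), as a percentage of the median of the other 5 libraries of the group, on log axes; values of 0 are drawn at 0.05%. Neuronal channel genes extend to the lower left, with a median of 9.45% and 16.1%, and smooth muscle ones range from Kcnq5 (7.55% and 15.8%) to values above 100%, with a median of 101% and 118%.

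For the genes at both ends of this contrast, the 150 bases before the annotated start are shown, as held by RefSeq for build GRCm38.p6. Cacna1b and Scn9a were low in OVX C5 and TAM C35, and Kcnj8 and Kcnmb1 were not. Capitals mark the GC box, GGGCGG or its complement CCGCCC, to which Sp1-type factors bind.
Cacna1b promoter (chr2:24763153-24763302, minus strand): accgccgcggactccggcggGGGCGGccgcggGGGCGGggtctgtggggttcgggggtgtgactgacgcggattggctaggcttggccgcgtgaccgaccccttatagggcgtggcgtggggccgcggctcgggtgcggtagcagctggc
Scn9a promoter (chr2:66634963-66635112, minus strand): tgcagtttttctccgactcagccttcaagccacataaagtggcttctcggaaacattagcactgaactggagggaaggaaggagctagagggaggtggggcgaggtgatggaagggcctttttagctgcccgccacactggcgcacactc
Kcnj8 promoter (chr6:142571615-142571764, minus strand): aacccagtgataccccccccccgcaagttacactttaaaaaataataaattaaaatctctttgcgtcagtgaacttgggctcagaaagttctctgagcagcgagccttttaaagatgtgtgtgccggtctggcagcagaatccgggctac
Kcnmb1 promoter (chr11:33962863-33963012, plus strand): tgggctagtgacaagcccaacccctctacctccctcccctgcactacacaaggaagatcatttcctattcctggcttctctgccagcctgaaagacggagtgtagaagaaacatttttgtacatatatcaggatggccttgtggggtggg
The motif occurred in the Cacna1b stretch and in none of the other 3 stretches. Over the 135 promoters of 300 bases held for 99 of the 134 members, 45.2% contained a GC box on either strand, and 35.7% of all 32851 promoters did. The palindromic estrogen response element, GGTCA and TGACC with 3 bases between them, was in none of the 135 member promoters and in 0.07% of all promoters. The CArG box, a smooth muscle gene element with 6 A or T bases between CC and GG, was in none and in 1.63% of all. The left part of the RE1 silencer element of neuronal genes, TTCAGCACC, was in 1, that of Kcnh6, and in 0.371% of all. These matches describe letters in a short window.

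Against this background, E2 was compared with vehicle to ask whether the main estrogen altered channel transcripts. At an adjusted p under 0.05 (edgeR's quasi-likelihood test, Benjamini-Hochberg adjustment over 24669 genes), 4 of 114 members were called, where 3.88% of all genes were. Adding the study's fold threshold, an absolute log2 fold change over 1, left 1 member, Kcne1l, where 1.22% of all genes passed. Kcnj11, a pore subunit of ATP-sensitive potassium channels, was higher with E2 (1 member, where 2.65% of all genes were higher), and Cacna1d, Cacna1g and Kcne1l were lower (3 members, where 1.23% were lower). Past both thresholds 0.9% of all genes were higher and 0.324% lower. The E2 and OVX libraries did not overlap for 0 members, where 2.85% of all genes did not. None of the 4 was on the neuronal list, and Cacna1g was the 1 called among 19 smooth muscle channel genes.

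Cacna1d encodes an L-type pore that opens at more negative potentials than Cacna1c. It ranged from 15.9 to 30.1 CPM in OVX (median 22.6) and from 12.9 to 18.7 CPM in E2 (median 15.6). All E2 libraries lay below all OVX libraries other than the lowest, OVX C5. Its log2 fold change was -0.54 ± 0.12 (SE; adjusted p = 0.0167, edgeR), and the call held with each of the 12 libraries left out in turn. Kcnj11 ranged from 1.18 to 2.37 CPM in OVX (median 1.79) and from 2.03 to 5.52 CPM in E2 (median 2.74). Its log2 fold change was 0.98 ± 0.25 (adjusted p = 0.0324, edgeR). Omitting any of OVX C2, C3, C4, C24 or C25 or E2 C9 or C29 ended that call, with log2 fold changes from 0.80 to 1.09 over all 12 omissions and adjusted p up to 0.0845 (edgeR). The E2 libraries highest in Kcnj11, C9 and C29, also had the highest skeletal muscle marker sums of the group (230 and 161 CPM against 61.9 to 139.6 CPM), as did TAM C35 in its group (269 CPM, with Kcnj11 at 5.08 CPM), and the part of these cells was not tested.

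Kcne1l, a small accessory subunit on the X chromosome, was scarce, at 0.332 to 0.879 CPM in OVX (median 0.644) and 0.125 to 0.348 CPM in E2 (median 0.229). The groups overlapped only at their edges. The log2 fold change was -1.35 ± 0.33 (adjusted p = 0.0253, edgeR), and leaving out OVX C2 or C4 or E2 C6, C8 or C26 ended the call (adjusted p up to 0.0635, log2 fold change -1.50 to -1.22 over the omissions). Cacna1g, a T-type calcium channel, ranged from 7.77 to 18.6 CPM in OVX (median 12.4) and from 4.94 to 10.3 CPM in E2 (median 7.17). Its log2 fold change was -0.78 ± 0.21 (adjusted p = 0.0460, edgeR), a call that held only without OVX C2 or without E2 C8 among the 12 omissions and otherwise ended, with adjusted p up to 0.118 and log2 fold changes of -0.90 to -0.64. The E2 libraries also had a higher macrophage marker sum (428 to 559 CPM against 218 to 395 CPM in OVX, the highest of them OVX C5), and its part in these results was not tested.

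As lists, the median log2 fold change was -0.05 over 51 neuronal and -0.07 over 19 smooth muscle channel genes, beside 0.01 over all genes. Without OVX C5, 7 members in place of 4 were called, where 5.21% of all genes were, with Cacna1a (0.38), Kcnip3 (-0.38) and Kcnk6 (0.56, log2 fold changes) among those added and losing Cacna1g, and the neuronal median became -0.25.

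**Figure D4:**
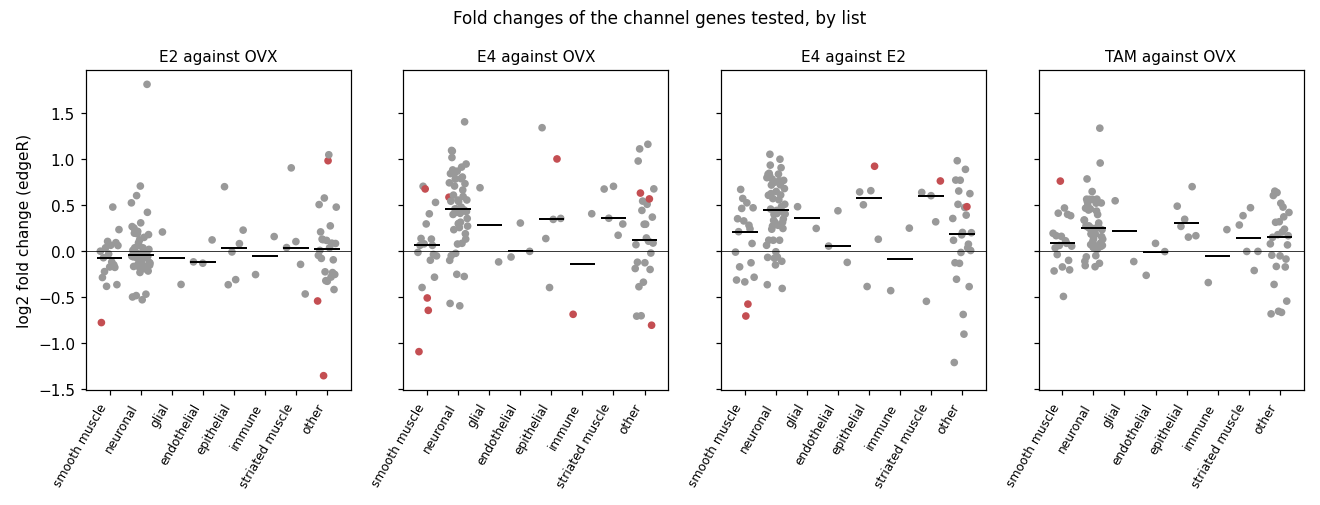
Fold changes (log2, edgeR) of the channel genes tested, by list, in 4 comparisons; each point is a gene, red points have an adjusted p under 0.05 and bars are list medians. The neuronal median is -0.05 for E2 against OVX, 0.46 for E4 against OVX, 0.44 for E4 against E2 and 0.25 for TAM against OVX, with few points past the threshold.

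With E4, channels of the arterial wall went in both directions. Cacna1g, Kcnj8 and Kcne4 of the smooth muscle list were lower than with vehicle and Kcna5 was higher. Outside that list, Kcnk1, Kcnk4, Kcnd1 and Cacna1a were higher, and Kcne3 and Kcnrg were lower. These were 10 of 114 members at an adjusted p under 0.05 (5 higher, where 9.65% of all genes were, and 5 lower, where 12% were), where 21.7% of all genes passed. With the fold threshold 1 was called, Cacna1g, where 2.5% of all genes were (0.876% higher and 1.62% lower). The smooth muscle list held 4 of the 10 (of 19 tested) and the neuronal list 1 (of 51 tested).

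Cacna1g lies on chromosome 11 (94408391 to 94474198, minus strand, GRCm38). It ranged from 7.77 to 18.6 CPM in OVX (median 12.4) and from 4.50 to 9.01 CPM in E4 (median 5.34). All but the highest E4 library lay below every OVX library. The log2 fold change was -1.09 ± 0.21 (adjusted p = 0.00351, edgeR), and the call at this threshold held with each library left out (-1.25 to -0.95). Without OVX C4 the change was under the fold threshold, and 0 members then passed both. In TAM its level was 7.82 to 16.8 CPM (median 9.82), with a log2 fold change of -0.22 ± 0.22.

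Kcnj8, on chromosome 6 (142564837 to 142571614, minus strand), ranged from 40.0 to 75.0 CPM in OVX (median 51.6) and from 26.3 to 46.1 CPM in E4 (median 34.8). A single E4 library reached into the OVX range. E4 differed from OVX by a log2 fold change of -0.64 ± 0.17 (adjusted p = 0.0128, edgeR), and it was -0.53 without OVX C5, the library in which the gene was highest, with an adjusted p of 0.0254. Kcne4, an accessory subunit that dampens Kv currents, ranged from 11.2 to 20.4 CPM in OVX (median 14.7) and from 8.73 to 12.1 CPM in E4 (median 10.6). Its log2 fold change was -0.51 ± 0.14 (adjusted p = 0.0156, edgeR), and -0.40 without OVX C5. Both calls held with every library left out.

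Kcna5, a voltage-gated channel of arterial smooth muscle, ranged from 3.03 to 6.70 CPM in OVX (median 3.91) and from 5.39 to 8.71 CPM in E4 (median 6.47). The highest OVX library was OVX C5, and the rest of that group lay below all E4 libraries. The log2 fold change was 0.67 ± 0.20 (adjusted p = 0.0254, edgeR). It was 0.84 without OVX C5, and leaving out OVX C3, OVX C4, E4 C19 or E4 C36 ended the call (adjusted p up to 0.0624, log2 fold changes of at least 0.58 over the omissions).

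Kcnk1, a two-pore potassium channel of the epithelial list, ranged from 2.40 to 6.58 CPM in OVX (median 4.67) and from 6.80 to 12.7 CPM in E4 (median 8.41), without overlap. Its log2 fold change was 0.998 ± 0.27 (adjusted p = 0.0157, edgeR). Kcnk4, the mechanosensitive TRAAK channel, ranged from 4.02 to 8.84 CPM in OVX and from 8.40 to 11.9 CPM in E4, with a log2 fold change of 0.56 ± 0.15 (adjusted p = 0.0133, edgeR). Cacna1a, the P/Q-type pore of nerve terminals, ranged from 10.6 to 25.9 CPM in OVX (median 23.4) and from 29.4 to 36.6 CPM in E4 (median 30.9), again without overlap. The corresponding log2 fold change was 0.58 ± 0.16 (adjusted p = 0.0174, edgeR). It was 0.45 without OVX C5, the lowest library. Calls for these 3 genes held with each library left out. Sympathetic neuron markers were also higher in E4 (5992 to 10351 CPM) than in OVX, where they reached 7938 CPM, and Kcnk4 and Cacna1a were themselves low in OVX C5. Markers of Schwann cells and satellite glia (summed) ranged from 1174 to 2121 CPM in OVX and from 1649 to 3793 CPM in E4. They were lowest in OVX C3 and highest in E4 C39, the libraries with the lowest and highest Kcnk1 of these groups, and their part was not tested.

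Kcne3, an accessory subunit of the immune list, was lower with E4 (-0.69 ± 0.18, adjusted p = 0.0139, edgeR; 0.549 to 1.05 CPM against 0.882 to 1.66 CPM in OVX). That call held with each library left out. Lymphocyte marker sums were also lower in E4 by median (B cell 4.47 CPM against 16.8 CPM in OVX, T cell 4.29 CPM against 10.8 CPM), with overlapping ranges, and their part was not tested. Kcnd1, an A-type channel, was higher (0.63 ± 0.22, adjusted p = 0.0495), but leaving out any library other than OVX C2, C5 or C24 ended the call (0.46 to 0.75 over the omissions, adjusted p up to 0.0997). It kept 34.8% of the median of the other libraries of the group in OVX C5 and 35.8% in TAM C35. Kcnrg, a regulator of potassium channel assembly, was lower (-0.81 ± 0.28, adjusted p = 0.0445), and its call held only without OVX C4, C24 or C25 (-0.94 to -0.61, adjusted p up to 0.126).

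Several main subunits of smooth muscle excitability did not pass the test with E4. Cacna1c, the L-type pore, ranged from 36.1 to 55.6 CPM in OVX and from 37.6 to 47.3 CPM in E4, with a log2 fold change of -0.02 ± 0.10. Kcnmb1 had 0.06 ± 0.16, Kcnma1 0.13 ± 0.26, Kcnk3 0.40 ± 0.19 and Cacna1h 0.06 ± 0.19. Without OVX C5, in which Kcnk3 was the highest of the OVX libraries, Kcnk3 was called (0.59, adjusted p = 0.0196, edgeR), and Kcnma1 stood at -0.07.

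Most neuronal channels had a positive fold change with E4 that did not pass the test. Of 51 tested, 44 had a positive log2 fold change, with a median of 0.46 beside -0.01 over all genes, and only Cacna1a was called. Cacna1b had 0.74 ± 0.54, Scn3b 0.55 ± 0.39, Scn3a 0.43 ± 0.46, Scn9a 0.27 ± 0.52 and Kcnh2 0.08 ± 0.15. The standard errors of the first 4 were wide, and OVX C5 held 0.703 CPM of Cacna1b against a group median of 76.1 CPM. Without OVX C5 the neuronal median was 0.26 and 17 members were called in place of 10, where 18.2% of all genes were called in place of 21.7%. Of the 17, 3 were neuronal: Cacna1a, Cacng4 (0.85) and Kcnmb4 (0.68), the neuronal β subunit of Kcnma1 channels. With the mean of the sympathetic neuron markers as a covariate, the neuronal median was -0.06 and the median of all members -0.00. In that fit 16 members were called, where 14.7% of all genes were, and Scn9a (-0.50, adjusted p = 0.0197), Scn1a (-0.52), Kcnj3 (-0.48) and Kcnd2 (-0.23, all edgeR) were lower, Cacna1a higher (0.36). Kcna5 (0.86), Kcnk3 (0.65), Cacna1g (-1.02) and Kcnj8 (-0.46) were also called in the same fit, and the call of Kcne4 was lost (-0.37, adjusted p = 0.0572, edgeR). In the marker sum OVX C5 lay far below the other libraries of this fit, so the slope of the covariate may rest largely on it. The covariate fit was not repeated without OVX C5.

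E4 was then set against E2 within the same fit of 18 libraries. At an adjusted p under 0.05, 5 of 114 members were called, where 10.9% of all genes were. With the fold threshold 0 members were called by edgeR and 3 by DESeq2, where 2.26% of all genes passed in edgeR (0.191% higher and 2.07% lower) and 2.61% in DESeq2. At an unadjusted p under 0.05, 30 members passed in edgeR, where 30.5% of all genes did, and 2 of the 30 had a log2 fold change beyond 1. Kcnj8 and Kcnk6 were lower with E4 than with E2 (2 members, where 7.95% of all genes were lower), and Kcnk1 and Kcnk4 were among the 3 members that were higher, where 2.95% of all genes were.

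Kcnj8 ranged from 44.4 to 80.4 CPM in E2 (median 54.2) and from 26.3 to 46.1 CPM in E4 (median 34.8). The groups met only at the lowest E2 and highest E4 library. Between them the log2 fold change was -0.71 ± 0.17 (adjusted p = 0.0141, edgeR). Kcnk6, a two-pore channel of vascular smooth muscle, ranged from 13.7 to 20.7 CPM in E2 (median 17.3) and from 8.18 to 14.6 CPM in E4 (median 11.95), with a log2 fold change of -0.58 ± 0.14 (adjusted p = 0.0152, edgeR). Calls for both genes held with each of the 12 libraries of these groups left out. The macrophage marker sum separated the same groups, at 428 to 559 CPM in E2 and 168 to 321 CPM in E4, and its part was not tested.

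Kcnk1 ranged from 2.03 to 7.05 CPM in E2 and from 6.80 to 12.7 CPM in E4, with a log2 fold change of 0.92 ± 0.27 (adjusted p = 0.0357, edgeR). Leaving out E2 C6, C8 or C9 or E4 C20, C36, C38 or C39 ended this call (0.76 to 1.05 over the omissions, adjusted p up to 0.0802). Kcnk4 ranged from 6.17 to 7.99 CPM in E2 and from 8.40 to 11.9 CPM in E4, without overlap, with a log2 fold change of 0.48 ± 0.15 (adjusted p = 0.0426, edgeR). Its call held only without E2 C29, E4 C38 or E4 C39 (0.43 to 0.54, adjusted p up to 0.110). Groups did not overlap for 5 members, all higher in E4 and among them Cacng5, Kcna6, Kcnk4 and Kcnn2, where 6.24% of all genes did not. Between E4 and OVX they did not overlap for 5 members as well (Cacna1a, Kcna6, Kcnc4, Kcnk1 and Scn10a, all higher in E4), where 9.5% of all genes did not.

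The number of calls between the estrogens depended on the libraries in the fit. With OVX C5 alone left out of it, 43 of 115 members were called, 38 of them higher with E4, where 21.5% of all genes were called. With all OVX libraries left out, 41 of 112 members were called, 36 of them higher with E4, where 22% of all genes were called. The 41 included 20 of the 51 neuronal channel genes, all higher with E4, and 7 of 19 smooth muscle ones. The shares of all genes in these fits cover both directions, and the share higher with E4 was not computed for them. In the fit of 18 libraries 2.95% of all genes were higher and 7.95% lower. The median log2 fold change of the neuronal list was 0.44 in these fits and in the fit of 18 libraries, where 43 of 51 were positive. Kcnj8 (-0.71), Kcnk6 (-0.58), Kcnk1 (0.92) and Kcnk4 (0.48) kept their log2 fold changes and their calls without OVX C5. The sympathetic neuron marker sum was 2930 to 7502 CPM in E2 (median 6188) and 5992 to 10351 CPM in E4 (median 9267). Markers of Schwann cells and satellite glia (8 genes, summed) did not overlap, at 562 to 1640 CPM in E2 and 1649 to 3793 CPM in E4, and their part in these calls was not tested. With the mean of the sympathetic neuron markers as a covariate in the fit of 18 libraries, 20 members were called, where 14.9% of all genes were, and the neuronal median was 0.06. Leaving out E2 C29 gave 10 calls, where 16.2% of all genes were called, and leaving out E2 C6, E2 C8 or E4 C20 gave 3, where 4.54% to 5.81% were.

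**Figure D5:**
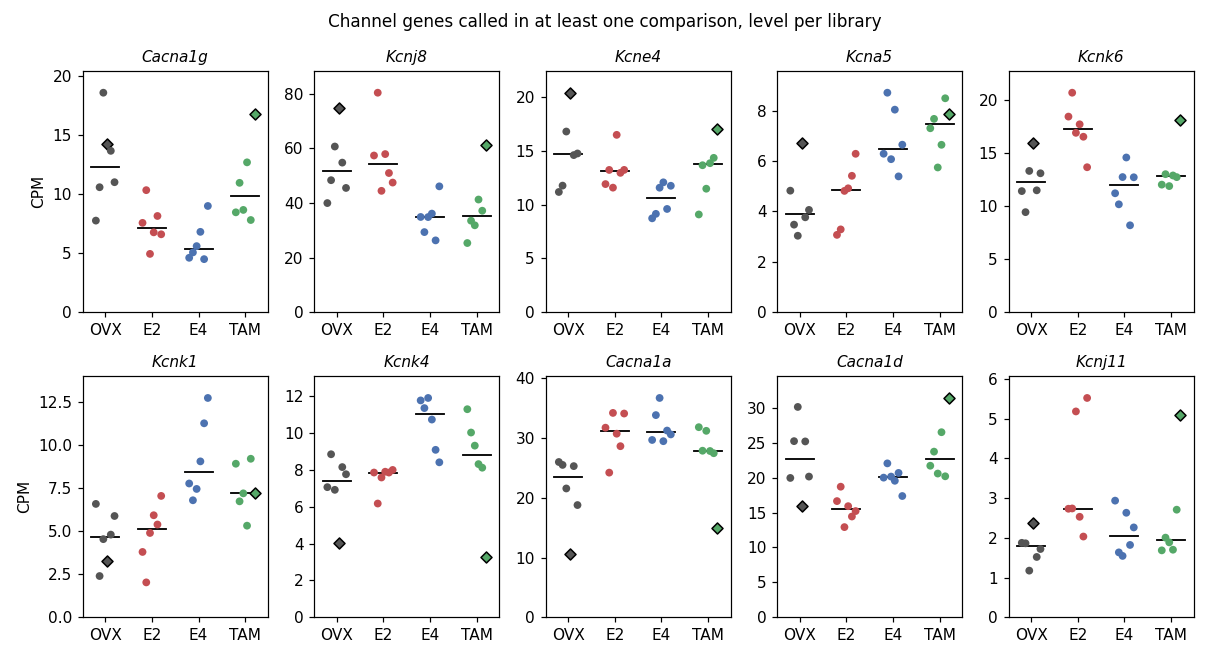
CPM per library of 10 channel genes called in at least 1 comparison, by group, with a line at the group median; diamonds mark OVX C5 and TAM C35. Cacna1g is lower in E2 and E4 than in OVX, Kcnj8 is lower in E4 than in OVX and E2, and Kcna5 is higher in E4 and TAM than in OVX.

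Tamoxifen was compared with vehicle in a fit of all 24 libraries. Of 116 members, 1 was called at an adjusted p under 0.05, where 2.23% of all 25056 genes were. With the fold threshold 0 were called by edgeR and 0 by DESeq2, where 0.315% of all genes passed in edgeR and 0.559% in DESeq2. At an unadjusted p under 0.05, 9 members passed in edgeR, where 21% of all genes did. The TAM and OVX libraries did not overlap for 0 members, where 2.58% of all genes did not. The gene called, higher where 1.3% of all genes were, was Kcna5, at 5.74 to 8.49 CPM in TAM (median 7.48) against 3.03 to 6.70 CPM in OVX (median 3.91). Only OVX C5 among the OVX libraries reached into the TAM range. The log2 fold change was 0.76 ± 0.18 (adjusted p = 0.0360, edgeR), and 0.91 without OVX C5 and TAM C35. Leaving out OVX C3, C4 or C24 or TAM C11, C12 or C33 ended the call (0.67 to 0.93 over the omissions, adjusted p up to 0.110).

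E4 and TAM share the OVX libraries, so their values for Kcna5 (0.67 and 0.76) are given side by side and are not independent. The same holds for Kcnj8, with -0.64 ± 0.17 for E4 and -0.49 ± 0.19 for TAM, the latter not called (adjusted p = 0.139, edgeR). Without TAM C35, the TAM library in which it was highest, Kcnj8 was called (-0.67, adjusted p = 0.0391), which brought the count of members called to 2, where 3.46% of all genes were called. Of the neuronal channel genes, 46 of 52 had a positive log2 fold change with tamoxifen, and the median was 0.25 beside -0.00 over all genes. The neuronal median was 0.06 without OVX C5 and 0.45 without TAM C35, and 0.24 without either. The smooth muscle median was 0.08. With the sympathetic neuron markers as a covariate 3 members were called, where 5.52% of all genes were: Kcna5 (0.85), Kcnk3 (0.59) and Kcnj3 (-0.53, log2 fold changes).

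A further 28 genes were chosen as partners of these channels in excitation (calcium stores, pumps, exchangers, cation and chloride channels and accessory subunits). Among them Ano1, the calcium-activated chloride channel of smooth muscle, was the 1 called with E2, where 3.88% of all genes were. It ranged from 33.5 to 54.2 CPM in OVX and from 25.8 to 33.8 CPM in E2, with a log2 fold change of -0.62 ± 0.10 (adjusted p = 0.00125, edgeR). With E4, 5 of the 28 were called, where 21.7% of all genes were. The pacemaker channels Hcn2 (1.17 ± 0.37, adjusted p = 0.0330) and Hcn4 (0.96 ± 0.25, adjusted p = 0.0144) were higher, as were the sarcoplasmic calcium pump Atp2a2 (0.30 ± 0.10, adjusted p = 0.0439) and the store sensor Stim1 (0.22 ± 0.08, adjusted p = 0.0483), and the cation channel Trpm4 was lower (-0.37 ± 0.09, adjusted p = 0.0109, all edgeR). Hcn2 stood at 0.945 to 10.1 CPM in OVX and at 10.2 to 17.8 CPM in E4, without overlap, and the lowest OVX value was that of OVX C5. In TAM C35 Hcn2 was at 1.11 CPM against 10.1 to 16.8 CPM in the other TAM libraries. Hcn3, Ryr2, Nalcn and Trpc6 were also the lowest of their groups in both libraries, whereas Ano1 and Itpr1 were the highest. The sympathetic neuron marker sum had a median of 5827 CPM in OVX and 9267 CPM in E4, and its part in the Hcn2 call was not tested. Without OVX C5 the log2 fold changes were 0.95 ± 0.26 for Hcn2 (adjusted p = 0.0193, edgeR) and 0.83 ± 0.23 for Hcn4 (adjusted p = 0.0225), Atp2a2 was no longer called (adjusted p = 0.0793), and 8 of the 28 were called, where 18.2% of all genes were. Ano1 was the 1 partner called between the estrogens, where 10.9% of all genes were, higher with E4 than with E2 (0.34 ± 0.10, adjusted p = 0.0426), and 0 of the 28 were called with tamoxifen by edgeR, where 2.23% of all genes were. With tamoxifen 5 of the 28 had an unadjusted p under 0.05 in edgeR, where 21% of all genes did, and 2 were called by DESeq2, where 6.49% of all genes were. DESeq2 called 3 of the 28 for E2 against OVX, 7 for E4 against OVX and 5 for E4 against E2. The shares of all genes called by DESeq2 in these comparisons are given in the last section.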

How the data were processed

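RNA of uninjured carotid arteries was sequenced in 24 libraries, 6 per group, and groups were taken from the sample titles. Per the labels, reads were trimmed with Trim Galore, aligned with Bowtie2 to GRCm38 (mm10) and counted with featureCounts from a stranded kit; the strand setting is not given in the sources used here. The authors deposited estimated counts per gene without normalization, and fractional values were rounded to whole numbers here.

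Counts were tested with edgeR's quasi-likelihood test (version 4.0.16, R 4.3.3; TMM scaling, filterByExpr, Benjamini-Hochberg adjustment over all genes), in 1 fit of 18 libraries for OVX, E2 and E4 and in 1 fit of 24 for TAM. Calls were made at the study's pair of thresholds (adjusted p below 0.05, with a log2 fold change beyond 1 in either direction) and at the adjusted p alone. SE is the fold change divided by the root of F. CPM use the TMM scaling of 24 libraries, and TPM use merged exon lengths of GENCODE release 21. On simulated counts for E4 against OVX (24669 genes), 83 of 100 genes changed 2-fold and 97 of 100 changed 4-fold were recovered with 8 false calls. For TAM (25056 genes) it was 78 and 96 with 15. The changed genes were drawn at random from those above a minimum expected count, and no library was simulated as outlying. These rates therefore do not cover the neuronal channel genes that were very low in OVX C5 or TAM C35.

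Genes named are chosen smooth muscle and neuronal channels, those called in a comparison (up to 4 highest and 4 lowest, and all past both thresholds up to 12), and the 10 highest per length; others singled out were chosen after their values were seen, and some genes that meet the rule are not reported here. Members, lists and this rule were chosen with earlier results of these data known. Alternatives changed the test (DESeq2 1.42.0), scaling, filter, libraries, number series of the animals, a sympathetic neuron marker covariate and the threshold; the fits without both OVX C5 and TAM C35 (TAM) and without OVX C5 (E4 against E2) were added after the data were seen. Library totals were 24647246 to 64221401, and their precision covers counting error only.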

Additional observations from a re-analysis of the deposited data

Results flagged for a closer look

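The level of 1 library stood far from the other 5 of its group, by Dixon's ratio of gap to range, in 21 of 132 groups of values examined (channel list sums and the genes tested by name). Chance alone flags about 1 in 20 groups, and genes of 1 library are not independent. Library TAM C35 accounted for 11 and OVX C5 for 3.

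OVX C5 stood low for the neuronal list (267.6 CPM, next 1345), Cacna1b (0.703 CPM) and Kcnma1 (14.8 CPM). TAM C35 stood low for the neuronal list (455.8 CPM, next 1563), the unlisted channels (221.9 CPM), all members summed (2106 CPM), Cacna1a (14.99 CPM), Kcnd1 (5.38 CPM), Scn3a (1.53 CPM) and Scn3b (22.5 CPM). It stood high for the epithelial list (73.4 CPM), Kcnj11 (5.08 CPM), Kcnk6 (18.1 CPM) and Kcnmb1 (119 CPM). In both libraries the sympathetic neuron marker sum was low as well (46.9 and 284 CPM), and its part was not tested here.

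In E2, library C26 stood high for the epithelial list (55.2 CPM), the immune list (7.99 CPM) and Kcne4 (16.5 CPM), and library C8 stood high for Kcnj8 (80.4 CPM) and low for Kcnk4 (6.17 CPM). Library E4 C38, the least deeply sequenced and the one with the most thyroid and parathyroid transcripts, stood low for Kcnk3 (91.7 CPM), and TAM C32 stood low for Kcne3 (0.468 CPM).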

How the results depend on the processing

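Counts at an adjusted p under 0.05 (4 for E2, 10 for E4, 5 for E4 against E2 and 1 for TAM in the fits reported) were 7, 19, 13 and 1 with DESeq2, where 6.18%, 25.5%, 16.2% and 6.49% of all genes were called, and 11, 16, 20 and 3 with the sympathetic neuron covariate, where 7.01%, 14.7%, 14.9% and 5.52% were. Comparing only 2 groups gave 1, 10, 41 and 0, where 2.89%, 18.3%, 22% and 0.162% of all genes were called. Animals numbered up to 20 gave 0 in each comparison (0.759%, 2.63%, 4.48% and 0.00393% of all genes), and those over 20 gave 0, 1, 0 and 0 (0.946%, 0.503%, 0% and 0% of all genes), from at most 4 libraries a group; whether the number series are batches is not stated. An adjusted p under 0.01 left 0, 1, 0 and 0 (1.78%, 6.45%, 2.57% and 0.196% of all genes), and no filter on low counts left 0 for TAM (0.498%). For E4 against E2 all 24 libraries gave 8 (12.6%), and leaving OVX C5 out of the fit, chosen after the data were seen, gave 43 (21.5%). Leaving out each library of the groups compared gave 1 to 7, 7 to 17, 3 to 10 and 0 to 2. Counts past both thresholds (1, 1, 0 and 0) were 1, 5, 3 and 0 with DESeq2, where 1.47%, 2.74%, 2.61% and 0.559% of all genes passed; for E2 they were 0 with at least 10 counts in every library, in either number series and at an adjusted p under 0.01, and 2 with the covariate. For E4 they were 2 with RLE scaling, 3 with 2 groups and 0 in animals up to 20; for E4 against E2 they were 1 with 24 libraries and 2 with 2 groups or without OVX C5. Leaving out each library of the groups compared gave 0 to 2, 0 to 3, 0 to 2 and 0. The 10 highest genes per length were the same 10 with TMM-scaled CPM per kilobase and without OVX C5 and TAM C35.

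Signs reversed for E4 against OVX as follows (log2). With the covariate these were Cacna1b -0.076, Cacna1h -0.080, Kcnh2 -0.061, Kcnma1 -0.26, Scn3a -0.26, Scn3b -0.0073 and Scn9a -0.50. In animals over 20 they were Cacna1c 0.069, Cacna1h -0.044, Kcnh2 -0.0070, Kcnma1 -0.36, Kcnrg 0.11, Scn3a -0.092 and Scn9a -0.23. Kcnmb1 was -0.060 in animals up to 20, and Cacna1c was 0.0033 with DESeq2 and 0.0031 with RLE. Leaving out single libraries turned Cacna1c (-0.064 to 0.058), Cacna1h (-0.013 to 0.14), Kcnmb1 (-0.020 to 0.17) and Kcnma1 (-0.069 to 0.24). In the fits reported, Kcnrg was the 1 of these that was called. The cause was not tested. No paired analysis was possible because the groups share no animal numbers.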
